A study of Mus musculus with 47 samples.

Results

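The comparison set the livers of 6 mice given an organic sunscreen with ultraviolet radiation (Organic + UVR) against those of 5 mice given a ZnO sunscreen with the same radiation (ZnO + UVR). These 11 arrays, 1 per mouse, were selected by their labelled sunscreen and UVR treatment from 47 arrays in 8 groups. No measured value decided which arrays entered, but the comparison itself was chosen with earlier results of these data known. All mice were female SKH:QS, an albino hairless strain, entered the study as young adults, and were killed at week 36 after 30 treatments. In Organic + UVR the active ingredients were organic UV filters alone (octylmethoxycinnamate, butyl methoxydibenzoylmethane, 4-methylbenzylidene camphor and octocrylene), and 29 kJ/m2 of UVR followed each application. In ZnO + UVR the only active ingredient was ZnO, as nanoparticles, with the same dose of UVR. Mice of both groups wore collars against licking and were washed after each treatment. Organic-UVR and ZnO-UVR (6 mice each) had the same products without UVR. The other groups of 6 were TiO2 + UVR and TiO2-UVR, whose product combined TiO2 nanoparticles with octylmethoxycinnamate and butyl methoxydibenzoylmethane, and Control + UVR and Control-UVR, which had no sunscreen. The methods describe group housing and the labels individual housing, and where the mice of a treatment shared a cage, cage and sunscreen cannot be told apart. Other ZnO + UVR mice died or were euthanized before the endpoint, and fewer were lost from Organic + UVR, so the arrays of both groups are of survivors. By the paper, a mouse of each group had a malignant finding at the endpoint. The labels do not say whether these mice gave arrays. By the methods, livers were taken about a day after the last irradiation. The hour at which each liver was taken was not given in the sources used here. Where that hour differed between the groups, hour and sunscreen cannot be told apart.

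Values were log2 RMA values, in which a difference of 1 is a doubling, for 9815 transcripts that lie mostly on chromosomes 1 and 10 to 16. A gene was called where limma, fitted to all 47 arrays, gave a Benjamini-Hochberg adjusted p under 0.1 over all 9815 transcripts. The median transcript had a 95% interval of ± 0.31 (log2) around its difference. Of 6 measured hepatocyte genes, 5 had differences below 0 and 2 were lower in Organic + UVR at an unadjusted limma p under 0.05. Hal was the 1 called lower. The 6 also held G6pc, which was not called and whose lower values are given below. Ahsg averaged 12.91 in Organic + UVR and 12.97 in ZnO + UVR, and Apob averaged 12.32 in Organic + UVR and 12.33 in ZnO + UVR, while the skin keratin Krt5 averaged 4.58 in Organic + UVR and 4.43 in ZnO + UVR. How compressed an array was, taken as the slope of its values against the average array, was 0.978 ± 0.0547 in Organic + UVR (SD, n = 6) and 1.02 ± 0.0243 in ZnO + UVR (SD, n = 5), with p = 0.173 by an exact two-sided permutation test over 462 regroupings. The most compressed of the 11 arrays was Organic + UVR replicate 4 (slope 0.895), and the most compressed of all 47 was Organic-UVR replicate 1 (0.772).

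The liver keeps its own circadian clock. In it CLOCK or its relative NPAS2 pairs with BMAL1 and binds E-boxes in the promoters of the Per, Cry, Ciart, Rev-erb and Tef genes, whose products act back on the loop. REV-ERB proteins, of which Nr1d2 encodes one, repress genes that carry ROR elements, such as Npas2 and Nfil3. TEF and HLF activate, and NFIL3 represses, genes that carry D-boxes.

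In Organic + UVR livers the activator Npas2 and the repressor Nfil3 were lower, and Nr1d2 and Tef were higher, than in ZnO + UVR livers. Npas2 and Nfil3 had the smallest p of the comparison, and Nr1d2 and Tef were the only transcripts called higher under these settings. In all, 53 of 9815 transcripts were called (0.54%), 2 of them higher (0.0204%) and 51 lower (0.52%) in Organic + UVR. Without adjustment, 408 transcripts were higher and 656 lower at p under 0.05. With the array slope as a covariate the calls were 22 higher and 35 lower. Of the called transcripts 50 had a single gene symbol.

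Promoters are shown for the named higher genes with an E-box and for Nfil3, the clock gene called lower that holds a ROR element. Each window runs from 250 bases before to 50 bases after a RefSeq start site (GRCm38.p6) and is written 5′ to 3′ on the strand of the gene, with the matches in capitals. E-boxes were searched as CACGTG, D-boxes as TTATGTAA or TTACGTAA and ROR elements as TAGGTCA or TGGGTCA, on both strands. An E-box can share its last bases with a ROR element, but no match shown here overlaps another.
Ciart, chr3:95882179-95882478, minus strand, 3 E-boxes: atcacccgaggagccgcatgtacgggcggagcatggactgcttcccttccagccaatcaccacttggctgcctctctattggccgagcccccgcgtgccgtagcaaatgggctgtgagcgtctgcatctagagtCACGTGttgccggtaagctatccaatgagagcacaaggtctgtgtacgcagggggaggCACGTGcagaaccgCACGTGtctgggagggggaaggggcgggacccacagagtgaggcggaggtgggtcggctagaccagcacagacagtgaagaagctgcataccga
Tef, chr15:81802423-81802722, plus strand, 1 E-box: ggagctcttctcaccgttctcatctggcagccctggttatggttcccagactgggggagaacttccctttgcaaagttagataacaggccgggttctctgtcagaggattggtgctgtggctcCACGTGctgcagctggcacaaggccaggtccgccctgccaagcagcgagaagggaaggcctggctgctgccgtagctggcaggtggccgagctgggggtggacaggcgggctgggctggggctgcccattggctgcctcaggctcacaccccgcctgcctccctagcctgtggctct
Tef, another start site, chr15:81811164-81811463, plus strand, 1 E-box: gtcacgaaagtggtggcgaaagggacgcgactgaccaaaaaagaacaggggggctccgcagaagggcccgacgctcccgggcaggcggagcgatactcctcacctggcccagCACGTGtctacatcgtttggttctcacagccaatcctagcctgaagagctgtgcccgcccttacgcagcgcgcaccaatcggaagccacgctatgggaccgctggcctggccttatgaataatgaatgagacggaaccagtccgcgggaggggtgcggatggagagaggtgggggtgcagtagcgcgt
Per1, chr11:69098699-69098998, plus strand, 1 E-box: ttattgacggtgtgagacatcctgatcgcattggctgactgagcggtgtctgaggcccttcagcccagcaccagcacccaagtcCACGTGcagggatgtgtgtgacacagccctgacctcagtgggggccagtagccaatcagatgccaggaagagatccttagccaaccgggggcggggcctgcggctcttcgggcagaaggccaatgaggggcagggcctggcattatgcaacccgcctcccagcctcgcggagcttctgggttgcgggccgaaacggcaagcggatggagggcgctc
Coq10b, chr1:55052520-55052819, plus strand, 1 D-box and 1 E-box: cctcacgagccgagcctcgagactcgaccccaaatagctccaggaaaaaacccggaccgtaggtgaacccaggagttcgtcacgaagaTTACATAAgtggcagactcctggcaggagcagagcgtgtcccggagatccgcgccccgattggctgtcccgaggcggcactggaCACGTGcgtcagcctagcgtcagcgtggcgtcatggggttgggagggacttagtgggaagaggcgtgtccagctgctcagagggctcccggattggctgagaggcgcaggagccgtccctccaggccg
Nfil3, chr13:52980990-52981289, minus strand, 1 ROR element on the opposite strand: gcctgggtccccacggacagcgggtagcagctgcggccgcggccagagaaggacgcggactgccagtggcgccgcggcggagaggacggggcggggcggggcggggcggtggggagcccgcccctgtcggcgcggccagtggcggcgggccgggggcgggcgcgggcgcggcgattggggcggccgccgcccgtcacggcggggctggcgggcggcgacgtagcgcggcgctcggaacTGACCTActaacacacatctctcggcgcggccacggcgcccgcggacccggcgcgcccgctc
The E-boxes of Ciart begin 116, 58 and 44 bases before the start site, and the ROR element of Nfil3 begins 12 bases before it. The D-box of Coq10b, like the ROR element of Nfil3, matches a searched word on the opposite strand. Over all 27025 genes in the table, 8.09% had an E-box, 1.23% a D-box and 7.35% a ROR element in at least 1 window, and of all 32851 windows 7.15% held an E-box, 1.06% a D-box and 6.45% a ROR element. Of the 12 named genes higher in Organic + UVR, 11 had a promoter, and 4 of these genes (Tef, Ciart, Per1 and Coq10b) had an E-box in at least 1 window. Of 39 called-lower genes with a promoter, 3 had an E-box and 5 a ROR element. The windows of Npas2 and Nr1d2 held none of the 3 words. A match is a description of the letters only.

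Npas2 had 4.13, 4.08, 4.82, 3.90, 3.79 and 4.25 (log2) in the 6 Organic + UVR livers, against 6.37, 6.48, 6.78, 6.93 and 6.62 in the 5 ZnO + UVR livers. The highest Organic + UVR liver lay well below the lowest ZnO + UVR liver. The difference was -2.54 ± 0.40 (log2, SE), or 5.82-fold lower in Organic + UVR, with a limma adjusted p of 0.0012. Nfil3 had 7.30, 7.12, 7.21, 7.29, 7.40 and 7.50 in Organic + UVR livers, against 8.54, 8.85, 8.54, 9.34 and 9.33 in ZnO + UVR livers. It too was separated without overlap, with a narrow spread in Organic + UVR, and the difference was -1.68 ± 0.27 (adjusted p = 0.0012).

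Nr1d2 had 9.36, 8.85, 8.85, 9.02, 9.33 and 8.71 in Organic + UVR livers, against 7.88, 7.89, 7.15, 7.50 and 7.78 in ZnO + UVR livers. Every Organic + UVR liver was above every ZnO + UVR liver, and the difference was 1.40 ± 0.29 (limma adjusted p = 0.0107). Tef, an activator of clock output genes, had 7.21, 6.55, 6.12, 6.97, 7.55 and 6.44 in Organic + UVR livers, against 5.93, 5.71, 5.64, 5.98 and 5.72 in ZnO + UVR livers. The groups did not overlap, although Organic + UVR replicate 3 lay only slightly above the highest ZnO + UVR liver, and the difference was 1.03 ± 0.22 (adjusted p = 0.0181).

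**Figure D1:**
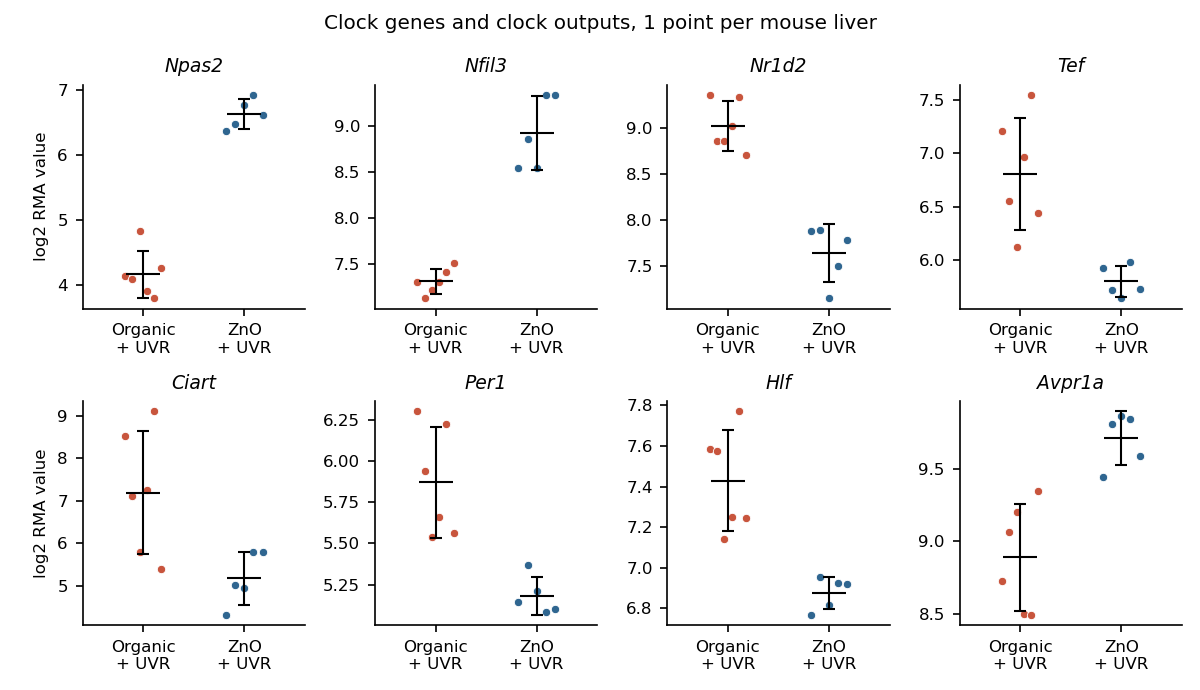
Log2 RMA values (vertical axes) of 8 clock genes and clock outputs in the 6 Organic + UVR livers (left, red) and the 5 ZnO + UVR livers (right, blue), with 1 point per mouse and the mean ± SD in black. Npas2, Nfil3 and Avpr1a were lower, and Nr1d2 and Tef higher, in Organic + UVR without overlap of the groups, while Ciart (5.40 to 9.11 in Organic + UVR) overlapped.

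Of 12 measured genes in the list of clock activators and repressors, 1 was called higher and 2 lower. Over all 6889 genes 2 were called higher and 48 lower. The list had a median difference of -0.13 (log2), against -0.01 over all genes, and did not move one way. Its repressors of CLOCK and NPAS2 did not pass the test. Ciart, which encodes such a repressor, had 8.52, 7.10, 5.78, 7.25, 9.11 and 5.40 in Organic + UVR livers, against 4.31, 5.01, 4.94, 5.79 and 5.80 in ZnO + UVR livers. Organic + UVR replicates 1 and 5 were the highest, and replicates 3 and 6 lay at the level of the upper ZnO + UVR livers. The difference of 2.06 ± 0.57 had a limma adjusted p of 0.116. Per1 had 6.30, 5.94, 5.54, 5.66, 6.22 and 5.56 in Organic + UVR livers, against 5.15, 5.37, 5.21, 5.08 and 5.10 in ZnO + UVR livers. Its groups did not overlap, and again Organic + UVR replicates 1 and 5 were the highest, but the adjusted p was 0.135. Further members were named after their values were seen: the period gene Per2 differed by 0.55 (adjusted p = 0.205), the cryptochrome Cry1 by -0.99 (0.23) and the REV-ERB gene Nr1d1 by 1.29 (0.428), all with overlapping groups.

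Of 8 measured clock output genes, Tef was called higher and Avpr1a, a vasopressin receptor, was called lower. Differences were above 0 in 6 of the 8, as in 3369 of all 6889 genes. Avpr1a had a lowest, median and highest value of 8.49, 8.89 and 9.35 in Organic + UVR livers, and of 9.44, 9.81 and 9.87 in ZnO + UVR livers, with no overlap and a difference of -0.82 ± 0.19 (limma adjusted p = 0.0317). Hlf, a relative of Tef, ran from 7.14 to 7.77 in Organic + UVR livers and from 6.77 to 6.95 in ZnO + UVR livers, without overlap, yet its difference of 0.57 did not pass (adjusted p = 0.186). Coq10b, which encodes a mitochondrial protein that binds coenzyme Q, had 9.25, 8.05, 6.72, 8.87, 9.20 and 7.60 in Organic + UVR livers, against 6.89, 6.22, 7.18, 6.58 and 7.58 in ZnO + UVR livers. It was highest in the same Organic + UVR livers as Ciart, replicates 1 and 5, overlapped through replicate 3, and had an adjusted p of 0.141. The remaining uncalled genes with the smallest p among higher ones were Ranbp3l (0.84), Slc2a12 (0.45), Snord82 (1.29), Spag16 (0.33), 4930524B15Rik (0.49) and Rgs6 (0.33).

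Of the 12 called genes with the largest decreases, 10 were outside the clock lists. Among them Tubb2a, a beta-tubulin, had 6.98, 7.39, 7.55, 6.96, 7.38 and 7.87 in Organic + UVR livers, against 8.54, 8.99, 9.72, 9.33 and 9.70 in ZnO + UVR livers. The groups were well separated, and the difference of -1.94 ± 0.37 was 3.83-fold lower in Organic + UVR (limma adjusted p = 0.0074). Tuba4a, an alpha-tubulin, ran from 9.14 to 9.78 in Organic + UVR livers and from 9.94 to 10.74 in ZnO + UVR livers, a difference of -1.02 (adjusted p = 0.0249). Of 10 measured genes of tubulins and their folding factors these 2 were called and 8 had differences below 0, with a median of -0.36. Over all 6889 genes 48 were called lower and 3520 had differences below 0, with a median of -0.01. Tubg1, the gamma-tubulin that nucleates microtubules, differed by -0.73 with an adjusted p of 0.129 and overlapping groups.

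Slc30a10, a manganese exporter of the zinc transporter family, had 6.55, 7.25, 7.93, 6.68, 6.99 and 7.39 in Organic + UVR livers, against 8.27, 8.52, 8.33, 8.73 and 8.28 in ZnO + UVR livers. All Organic + UVR livers lay below all ZnO + UVR livers, with a difference of -1.31 ± 0.23 (limma adjusted p = 0.0040). It was the only called member among 10 measured genes of zinc and metal handling, whose median difference was -0.12. The zinc importer Slc39a4 differed by -0.56 with an adjusted p of 0.426, and the other 8 members lay between -0.16 and 0.23.

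Insig2, which holds the sterol sensor SCAP in the endoplasmic reticulum, had 9.18, 9.31, 10.05, 9.21, 9.45 and 9.78 in Organic + UVR livers, against 10.24, 10.50, 10.44, 10.69 and 10.45 in ZnO + UVR livers. It was lower in every Organic + UVR liver, by -1.02 ± 0.18 (limma adjusted p = 0.0040), and was the only one of 11 measured sterol genes called. Ddc, the aromatic amino acid decarboxylase, ran from 7.37 to 8.30 in Organic + UVR livers and from 8.25 to 9.32 in ZnO + UVR livers, and Hal, the first enzyme of histidine breakdown, from 9.61 to 10.32 in Organic + UVR livers and from 10.36 to 10.84 in ZnO + UVR livers. Ddc fell by 1.03 (adjusted p = 0.0455) with slightly overlapping ranges and Hal fell by 0.61 (0.0857) without overlap. They were the 2 calls among 19 amino acid breakdown genes. Differences were below 0 in 17 of the 19 (median -0.26), against 3520 of all 6889 genes (median -0.01). Acmsd of the tryptophan pathway differed by -0.64 and was not called (adjusted p = 0.207).

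The other 5 genes of the 12 largest decreases were as follows. Nckap5 differed by -1.75, Lgalsl, a galectin-related gene, by -1.36, Asap2, which encodes a GTPase-activating protein for Arf, by -1.30, Ypel2 by -1.07 and Pnkd by -1.02. Their groups did not overlap in any of the 5. Nckap5 had 4.96, 4.93, 6.01, 4.63, 5.18 and 5.97 in Organic + UVR livers, against 6.86, 6.83, 7.20, 7.41 and 6.73 in ZnO + UVR livers. In Organic + UVR, replicates 3 and 6 were the highest for Nckap5 and Slc30a10, and also for Insig2.

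**Figure D2:**
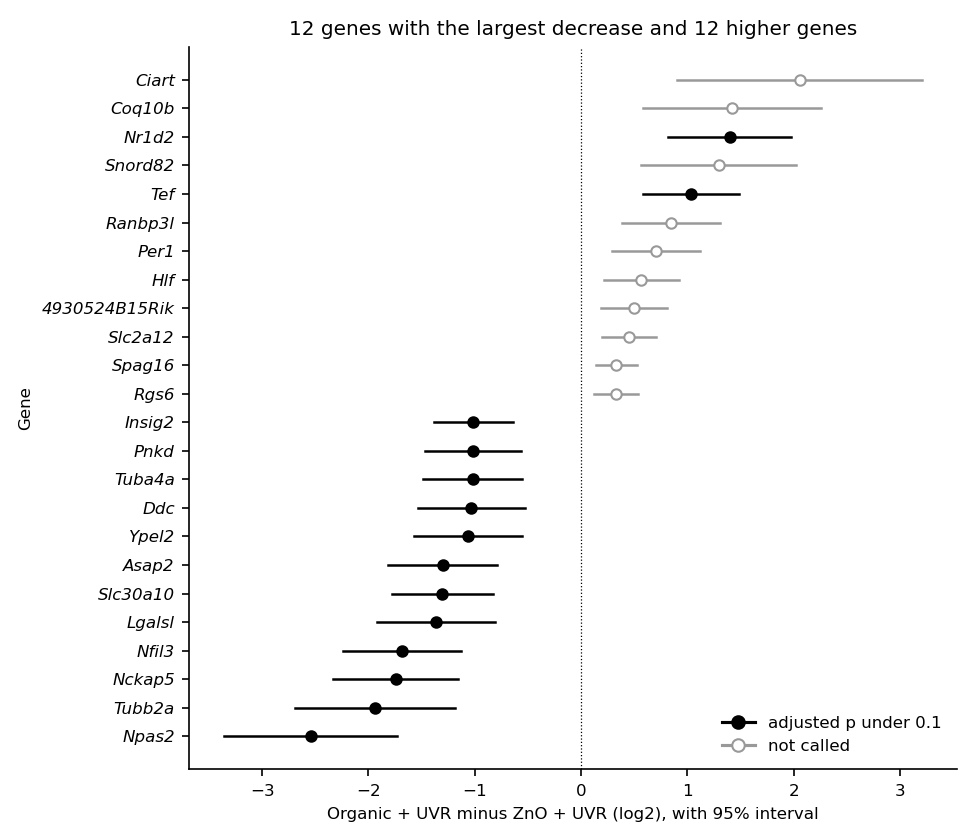
Difference between Organic + UVR and ZnO + UVR (log2, horizontal axis) with its 95% interval for the 12 called genes with the largest decrease and the 12 higher genes (vertical axis). Filled black points passed an adjusted p under 0.1, open grey points did not. Of the higher genes only Nr1d2 and Tef passed, although Ciart and Coq10b had larger differences with wider intervals.

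The 51 called-lower transcripts had a median difference of -0.79 (log2), a median fold of 1.72, and ran from -2.54 in Npas2 to -0.47 in Cog1, a subunit of a Golgi tethering complex. For 37 of the 51 no Organic + UVR liver overlapped a ZnO + UVR liver, as for 1.44% of all transcripts, and for both called-higher ones, as for 0.295% of all. Since a call and a lack of overlap use the same values, this describes the calls and is no further support for them. Just inside the threshold were Celsr1 (adjusted p = 0.084), Hal (0.0857) and Cog1 (0.0875), and just outside were Ranbp3l and Clint1 (both 0.104). The level of the calls was high: 49 of the 51 lay above the median transcript. Across all transcripts the difference and the mean level were correlated (r = -0.39 over 9815 transcripts of the same arrays), so brighter transcripts tended to be lower in Organic + UVR, and the part of this in the calls was not tested.

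Other called genes were Stat5b, Inhba, Map4k4, Tab2, Plxna2, Net1 and Mrap, which were not chosen as a list. Of 27 measured genes of immediate early and MAP kinase signalling, none was called, 13 had differences above 0 and 14 below, and the median was -0.01. Stat5b, which carries growth hormone signals to the genome, had lowest, median and highest values of 5.87, 6.19 and 6.63 in Organic + UVR livers, and of 6.62, 6.97 and 7.09 in ZnO + UVR livers. Only the highest Organic + UVR liver reached the lowest ZnO + UVR liver, and the difference was -0.71 ± 0.14 (limma adjusted p = 0.0074). It was the 1 call among 11 genes of the growth hormone axis, whose median was -0.21. Its feedback inhibitor Socs2 ran from 7.62 to 8.56 in Organic + UVR livers and from 6.34 to 8.26 in ZnO + UVR livers, a difference of 1.24 that was not called (adjusted p = 0.238). Inhba, an activin subunit, differed by -0.99 (limma adjusted p = 0.0449), and Map4k4, a kinase of stress signalling, by -0.66 (0.0275). Tab2, an adaptor of the kinase TAK1, differed by -0.77 (0.0275), Plxna2, a semaphorin receptor, by -0.78 (0.0249), and Net1, an activator of RhoA, by -0.92 (0.0238). All were called, but the groups overlapped in all except Net1, and each call was lost under some of the 24 other settings. Without Organic + UVR replicate 4, Inhba differed by -0.70 (adjusted p = 0.382). Mrap, which brings melanocortin receptors to the cell surface, differed by -0.74.

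Protein synthesis and quality control gave few calls but many small differences below 0. Of all 6889 genes, 48 were called lower and 3520 had differences below 0. The lists of this and the next paragraph held no measured gene below the median level. Transcripts above that level had a median difference of -0.08, and the part of level in these lists was not tested. Tars, the threonyl-tRNA synthetase, had 8.65, 8.89, 9.20, 8.27, 8.71 and 9.43 in Organic + UVR livers, against 9.28, 9.85, 10.23, 9.85 and 9.97 in ZnO + UVR livers. Organic + UVR replicate 6 was above ZnO + UVR replicate 1 and the others were below all ZnO + UVR livers, with a difference of -1.01 ± 0.21 (limma adjusted p = 0.0107). It was 1 of 7 measured synthetases, of which 6 had differences below 0. Ahsa1, a co-chaperone that activates HSP90, had 8.04, 7.76, 7.94, 7.44, 8.11 and 7.77 in Organic + UVR livers, against 8.62, 8.41, 8.28, 8.60 and 8.60 in ZnO + UVR livers, without overlap, and fell by 0.65 (adjusted p = 0.0074). It was the 1 call among 25 genes of endoplasmic reticulum stress and heat shock, 22 of them with differences below 0 and a median of -0.21. The chaperone Dnajb11 (-0.69, adjusted p = 0.109) and the stress transcription factor Atf4 (-0.45, 0.168) were not called.

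None of 20 proteasome genes was called, although 19 had differences below 0 and the median was -0.28. The proteasome subunit Psmd11 ran from 8.79 to 9.22 in Organic + UVR livers and from 9.43 to 9.63 in ZnO + UVR livers, without overlap, and its difference was -0.50 (limma adjusted p = 0.146), while Psmc5 differed by -0.47 and Psmd2 by -0.45. None of 34 ribosomal protein genes was called, with 31 below 0 and a median of -0.13. None of 18 translation initiation factors was called, with 15 below 0 and a median of -0.10. Rpsa had the smallest p of the ribosomal list (-0.43, adjusted p = 0.17) and Eif2b5 that of the factors (-0.52, 0.188). All transcripts above the median level together had a median difference of -0.08.

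Of 17 interferon response genes all 17 had differences below 0, as had 3520 of all 6889 genes. Their median was -0.31, against -0.01 over all genes and -0.08 over transcripts above the median level. Only 3 of the 17 lay below that level, and the part of level in their differences was not tested. Of the 17 only 1 was called, and it was 1 of the 3 below the median level. That gene, Dhx58, encodes LGP2, a regulator of the cytosolic RNA sensors, and had 4.45, 4.51, 4.92, 4.00, 4.17 and 4.76 in Organic + UVR livers, against 5.38, 5.30, 5.42, 5.66 and 5.18 in ZnO + UVR livers. Its groups did not overlap and the difference was -0.95 ± 0.18 (limma adjusted p = 0.0074). Parp9 (-0.45) and the GTPase Irgm1 (-0.57), both with an adjusted p of 0.336, were not called.

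The measured genes of foreign compound handling gave no call, but they were the smaller part of each list. Measured were 13 of 63 listed cytochrome P450 genes and 23 of 55 other phase I enzymes, with medians of -0.08 and 0.05. Of 68 conjugating enzymes 13 were measured, and of 31 xenobiotic receptors and transporters 9, with medians of -0.07 and 0.01. The unmeasured members could not be tested. Cyp2d40 had the smallest p of the P450 genes (-0.51 ± 0.19, limma adjusted p = 0.329), with a range of 7.33 to 8.88 in Organic + UVR livers that overlapped 7.96 to 9.53 in ZnO + UVR livers. Ahrr, the repressor of the aryl hydrocarbon receptor, differed by 0.26 with a 95% interval of 0.02 to 0.50 (adjusted p = 0.427). For glucose output, G6pc, the last enzyme of that path, ran from 8.34 to 10.27 in Organic + UVR livers and from 9.90 to 11.33 in ZnO + UVR livers, and its difference of -1.47 ± 0.47 was not called (adjusted p = 0.202). Igfbp1, a fasting-induced binding protein for insulin-like growth factors, differed by -1.03 (0.329).

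**Figure D3:**
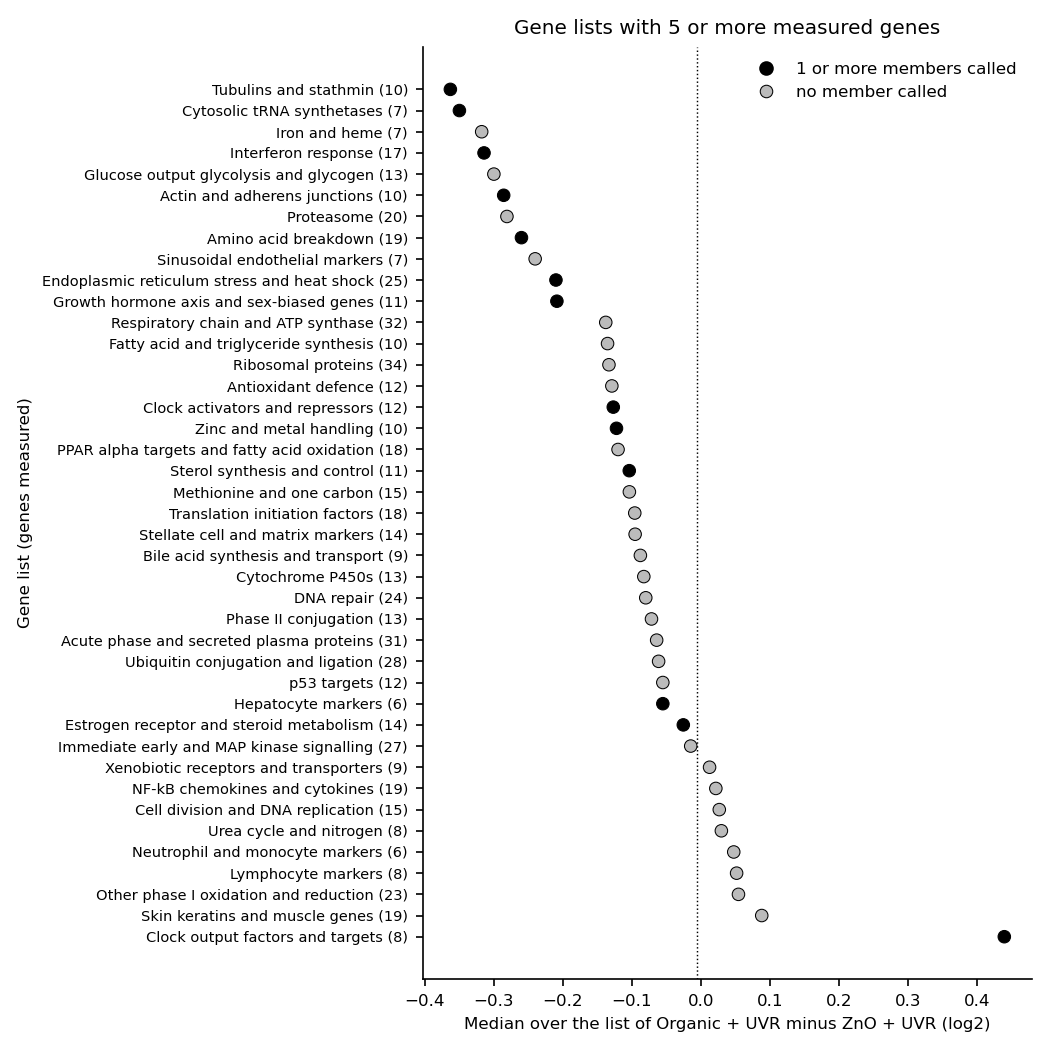
Median difference between Organic + UVR and ZnO + UVR (log2, horizontal axis) of each gene list with 5 or more measured genes (vertical axis, number measured in brackets), with the median of all genes as a dotted line. Black points mark lists with at least 1 called member. Most lists lay below the line, from -0.36 in tubulins, while clock outputs stood at 0.44.

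The measured markers of non-hepatocyte cells gave no call. Several of their lists lay lower in Organic + UVR, but not all. Of 6 neutrophil and monocyte markers 5 had differences above 0 (median 0.05), as had 2 of 2 erythroid markers (median 0.03). All 7 sinusoidal endothelial markers had differences below 0, and Pecam1 ran from 4.89 to 5.92 in Organic + UVR livers and from 6.00 to 6.49 in ZnO + UVR livers (-0.64, limma adjusted p = 0.135). The summed level of these 7 ran from 8.63 to 9.21 (log2) in Organic + UVR and from 9.07 to 9.34 in ZnO + UVR. The summed level of 4 genes listed as bile duct markers ran from 9.07 to 9.42 in Organic + UVR and from 9.28 to 10.00 in ZnO + UVR. It was led by Sox9 (-0.47) and Krt18 (-0.49). The defining markers Krt7 and Krt19 differed by 0.15 and -0.14, so this sum need not stand for bile duct cells. The sum of 14 stellate cell and matrix genes, 9 of them below 0 and Sparc at -0.78, ran from 10.87 to 11.69 in Organic + UVR. In ZnO + UVR it ran from 11.53 to 11.96. The 8 lymphocyte markers, 6 of them above 0 and 2 below (median 0.05), ran from 8.08 to 8.75 in Organic + UVR and from 8.26 to 8.87 in ZnO + UVR. The 4 Kupffer cell markers, all 4 below 0, ran from 8.55 to 9.65 in Organic + UVR and from 8.98 to 10.16 in ZnO + UVR, and the 6 hepatocyte markers, Hal called lower among them, from 14.32 to 14.64 in Organic + UVR and from 14.55 to 14.67 in ZnO + UVR. In whole liver, fewer cells of a type and less RNA per cell cannot be told apart, and the part of cell composition in the calls was not tested.

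The same products were also compared in 12 other mice without UVR. No transcript of 9815 was called there (0%), while 545 were higher (5.55%) and 646 lower (6.58%) in Organic-UVR at an unadjusted p under 0.05, and the smallest adjusted p was 0.144. All 51 transcripts called lower with UVR were also lower in Organic-UVR than in ZnO-UVR, 42 of them at an unadjusted p under 0.05, and their median difference was -0.52. Of all 9815 transcripts 45.3% were lower in Organic-UVR. Of the 4907 transcripts above the median level, 68.8% were lower in Organic-UVR, and 12.6% were lower at that p. Both called-higher transcripts were higher without UVR, Tef by 0.54 (unadjusted p = 0.0147 in limma) and Nr1d2 by 0.42 (0.126). Without UVR the difference was -1.65 in Npas2 (unadjusted p = 9.6e-05) and -0.82 in Avpr1a (4.5e-05), which is the same as with UVR in Avpr1a.

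Whether the gap between the products differed with UVR was tested as an interaction. No transcript was called (0%, smallest adjusted p 1.00), and 203 had an unadjusted p under 0.05 (2.07%). The median 95% interval of this interaction was ± 0.42 (log2) before adjustment. Of the 51 called-lower transcripts, 48 had the larger difference with UVR and 5 had an interaction p under 0.05, but they were chosen on the difference with UVR, which enters the interaction. Dhx58 was among these, at -0.95 with UVR and -0.04 without (interaction -0.91, unadjusted p = 0.00076, adjusted p = 1.00).

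**Figure D4:**
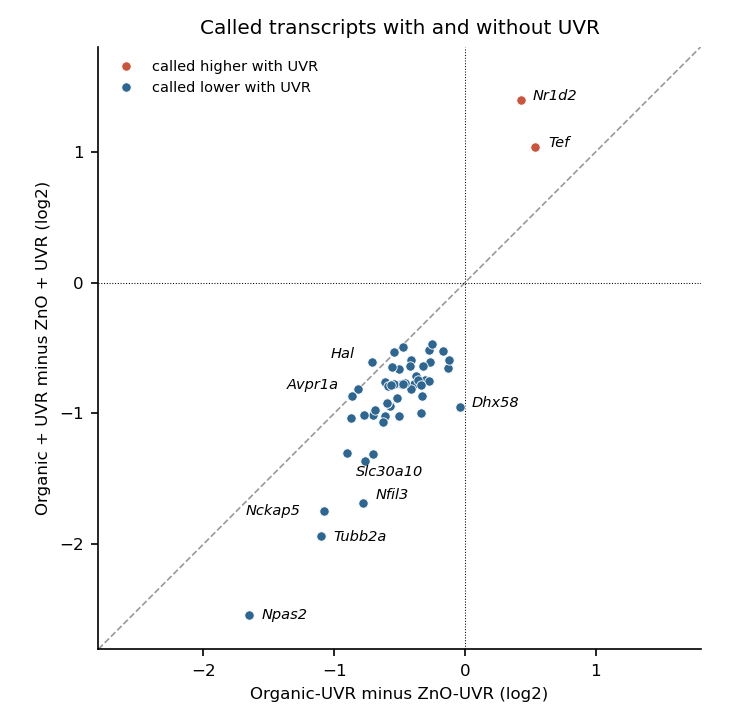
Difference of each of the 53 called transcripts between Organic + UVR and ZnO + UVR (log2, vertical axis) against the difference between Organic-UVR and ZnO-UVR in other mice (log2, horizontal axis), with the line of equal values dashed. All 51 called lower lie below 0 on both axes and 48 of them lie below the line, and both called higher lie above 0 on both axes.

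The levels in the other groups show where the called genes stood. These groups share ZnO + UVR as the point of comparison, so their values are given side by side. The median over the 51 called-lower transcripts of the group mean minus the ZnO + UVR mean was -0.78 in Organic + UVR, -0.74 in TiO2 + UVR, -0.28 in Control + UVR, -0.78 in Organic-UVR, -0.15 in TiO2-UVR, -0.27 in ZnO-UVR and -0.17 in Control-UVR. The Organic + UVR mean was below the Control + UVR mean for all 51 transcripts, and the ZnO + UVR mean was above it for 50. The TiO2 + UVR mean was below the ZnO + UVR mean for all 51. The 51 were chosen for a high ZnO + UVR level against Organic + UVR, so other groups tend to fall below ZnO + UVR, and these counts describe the chosen transcripts only. Over all transcripts the median of the same differences was 0.02 in Organic + UVR, 0.03 in TiO2 + UVR and 0.01 in Control + UVR.

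Npas2 had a lowest, median and highest value of 3.79, 4.11 and 4.82 in Organic + UVR, 3.86, 4.07 and 4.46 in TiO2 + UVR, 6.37, 6.62 and 6.93 in ZnO + UVR and 5.11, 5.65 and 6.16 in Control + UVR. Without UVR it had 3.79, 4.06 and 4.63 in Organic-UVR, 4.63, 6.30 and 7.30 in TiO2-UVR, 4.02, 6.30 and 7.00 in ZnO-UVR, and 4.12, 6.20 and 6.71 in Control-UVR. Thus Npas2 was low in every mouse of Organic + UVR, Organic-UVR and TiO2 + UVR, and spread widely within TiO2-UVR, ZnO-UVR and Control-UVR, which held both low and high livers. Slc30a10 ran from 6.55 to 7.93 in Organic + UVR, 6.31 to 7.22 in TiO2 + UVR, 8.27 to 8.73 in ZnO + UVR and 7.99 to 8.48 in Control + UVR, and from 6.37 to 8.59 in ZnO-UVR. Nr1d2 averaged 9.02 ± 0.27 (SD, n = 6) in Organic + UVR, 9.29 ± 0.16 (n = 6) in TiO2 + UVR and 8.98 ± 0.45 (n = 6) in Organic-UVR, whose ranges overlapped. It stood at 7.64 ± 0.32 (n = 5) in ZnO + UVR and 7.95 ± 0.43 (n = 6) in Control + UVR. Its range was 7.97 to 9.40 in ZnO-UVR, 7.53 to 9.03 in Control-UVR and 6.63 to 8.70 in TiO2-UVR. The highest livers of ZnO-UVR and Control-UVR thus reached the Organic + UVR range of 8.71 to 9.36.

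**Figure D5:**
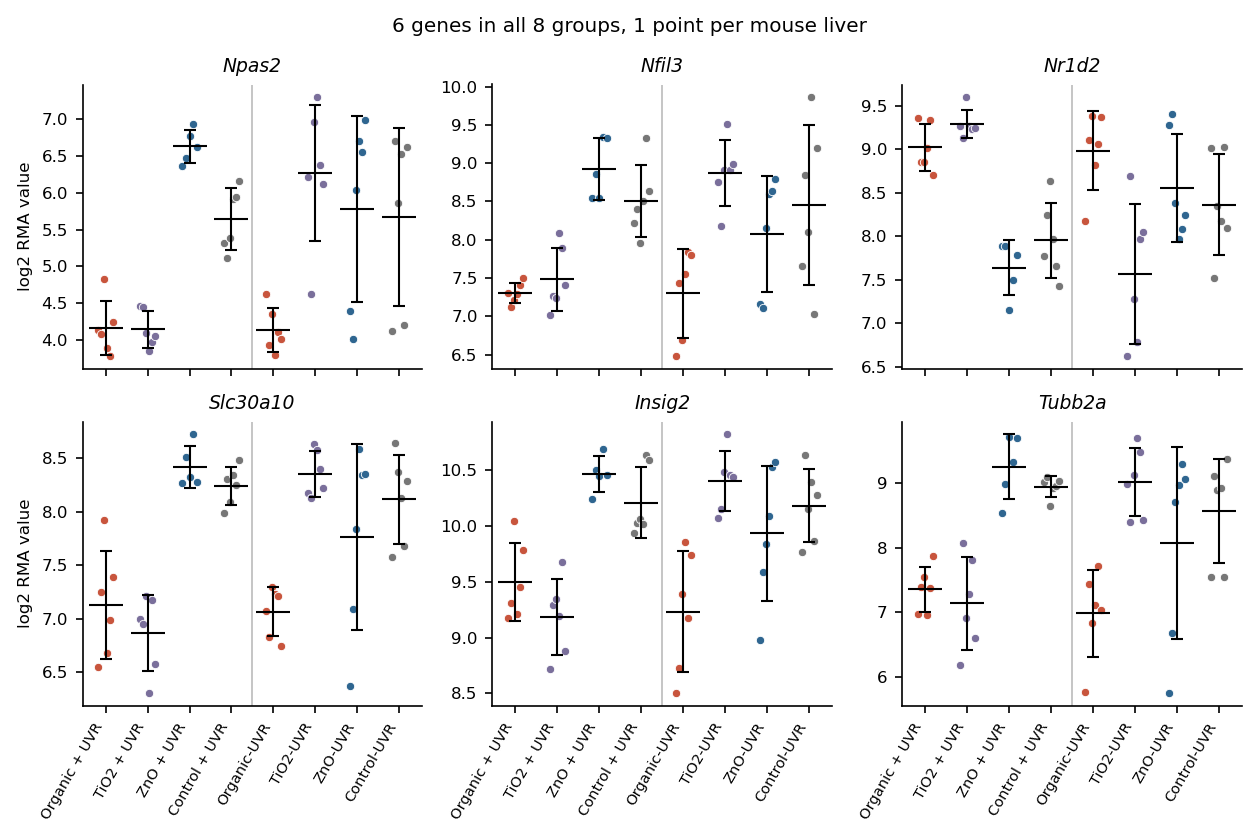
Log2 RMA values (vertical axes) of 6 called genes in all 8 groups, with 1 point per mouse, the mean ± SD in black, groups with UVR left of the grey line and groups without UVR right of it. Organic + UVR, TiO2 + UVR and Organic-UVR lie together and away from ZnO + UVR. In the called-lower genes shown ZnO-UVR spans both levels, from 4.02 to 7.00 for Npas2. For Nr1d2 every ZnO-UVR liver (7.97 to 9.40) lies above every ZnO + UVR liver (7.15 to 7.89).

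The number of calls rested on single arrays. It was 18 without Organic + UVR replicate 4, 19 without ZnO + UVR replicate 4, 27 without ZnO + UVR replicate 1 and 33 without ZnO + UVR replicate 2, and leaving out replicate 1 of Organic + UVR gave 299 calls. The number was 131 when Organic-UVR replicate 1 was left out, which sits outside both groups but enters the common variance. Over 24 other settings no called transcript changed direction in any in which it was tested, although 51 of the 53 were tested above the median level and 50 with 1 transcript per gene. In every setting that tested them 13 kept their call, which was 23 settings for Dhx58: Npas2, Nfil3, Nr1d2, Tef, Tubb2a, Nckap5, Slc30a10, Insig2, Dhx58, Asap2, Mpzl1, Lgalsl and Tars.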

How the data were processed

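Total liver RNA of 47 mice was hybridised to Affymetrix Mouse Gene 1.0 ST arrays, 1 per mouse. The deposited log2 values are the authors' robust multi-array averages, per the methods. The study removed batch effects, but whether the deposited values had this step is not given in the sources used here. Of 16383 probesets in the table, 6568 control probesets were left out. The 9815 tested were a part of the array. Of these, 7450 had 1 symbol, 511 several and 1854 none; 7421 symbols were matched by Entrez number to RefSeq genes of GRCm38.p6, and the brightest transcript stood for each of 6889 genes in lists. Promoter sequences were from RefSeq (41 of 50 called genes matched).

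All groups were fitted in limma 3.58.1 (R 4.3.3) with the replicate number as a block (34 residual degrees of freedom), so a fitted difference can depart slightly from that of group means. The number of arrays limits precision, and nothing says whether p-values reflect more than the spread between these mice. Genes were named by a rule: up to 12 called with the largest increase and decrease, filled by smallest p, and 3 per list by smallest p. Per2, Cry1 and Nr1d1 were added after their values were seen. Called genes named outside this rule were likewise chosen after their values were seen. The rule, the 45 gene lists and the comparison were chosen with earlier results of these data known. Summed marker levels are log2 of summed linear values. The fit was tested on simulated data, with independent normal values and 200 transcripts changed in Organic + UVR. It recovered 53.2% of changes of 0.5 (log2) and 96.2% of changes of 1, and 8.63% of its calls were false. No replicate effect, compressed array or correlation between genes was simulated, so the simulation does not show how the fit behaves with these. Alternatives were no block, only the groups compared, quantile normalization, a filter on dim transcripts, adjusted p under 0.05, array weights, unmoderated variances, 1 transcript per gene, the slope as a covariate and leaving out arrays.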

Additional observations from a re-analysis of the deposited data

Results flagged for a closer look

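Values of single livers that stood far from the rest of their group, by Dixon's criterion at the 95% level, were found in 15 of 184 sets of values checked. Chance alone flags about 1 in 20 such sets. In 7 of the 15 the liver was Organic + UVR replicate 4, the array with the lowest slope of the 11. It was the lowest of its group for Pdcl3 (6.53, next 7.14), Itsn1 (5.47, next 6.09), Septin9 (6.67, next 7.37) and Prim1 (4.97, next 5.88), a primase subunit of DNA replication. It was the highest for Spag16 (3.33, next 2.88), 4930524B15Rik (5.20, next 4.51) and Ahrr (3.97, next 3.52), which are dim transcripts. Without this array 18 transcripts were called, and the part of its compression in these values was not tested.

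Other Organic + UVR livers stood apart for Sumo3 (replicate 2 lowest, 7.57), Snord82 (replicate 6 lowest, 5.09) and Cry1 (replicate 5 highest, 7.20). In ZnO + UVR, replicate 3 was the highest for Desi2 (7.76) and Pla2g12b (8.90) and the lowest for G6pc (9.90), and replicate 4 was the highest for Pctp (7.71) and Rpsa (10.32). No transcript differed between the product gaps with and without UVR at an adjusted p under 0.1.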

How the results depend on the processing

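Against 53 calls between Organic + UVR and ZnO + UVR, there were 30 with no replicate block, 114 among transcripts above the median level (fewer tests), 319 with array weights and 83 with 1 transcript per gene (fewer tests). Leaving out 1 array gave 18 to 299 calls. Of the 53 calls, 18 to 53 were kept when 1 of the 11 arrays was left out. Without Organic + UVR replicate 4 and Organic-UVR replicate 1 together, a setting chosen after seeing the data, there were 29. The other settings, also replicate numbers 1 to 5 only (chosen after seeing the data), stayed within 1.5 times. The split of 2 higher and 51 lower became 22 higher and 35 lower with the array slope as a covariate, 13 and 38 in a fit of only the 11 arrays with the block, 59 and 260 with array weights, and 64 and 235 without Organic + UVR replicate 1. No call reversed. Of 38 named uncalled genes, 29 were called under at least 1 setting.

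Between Organic-UVR and ZnO-UVR, 0 calls became 20 above the median level and 84 with array weights, and 0 to 20 when 1 array was left out: 20 without ZnO-UVR replicate 1, 20 without replicate 2, 10 without Organic-UVR replicate 3 and 7 without replicate 4. The interaction gave 0 calls under every setting run, also with no replicate block. The slope difference of -0.0404 lay between -0.0516 and -0.0238 when 1 array was left out (exact p 0.0873 to 0.31). The causes of these shifts were not tested.

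The labels do not say that a replicate number marks a shared batch, and the data do not settle it. Over numbers 1 to 5 the correlations of deviations between the 2 groups were -0.29, 0.33, 0.14, 0.0027 and 0.35, and over all 47 arrays the median was 0.145 for the same number in other groups and -0.0318 for other numbers. The fit with the replicate block was the one reported, and the 30 calls without it were all among the 53.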

Other observations

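The measured genes of DNA repair and cell division, 24 of 70 and 15 of 65 listed, gave no call between Organic + UVR and ZnO + UVR. Of 24 repair genes, 17 had differences below 0 with a median of -0.08 (log2). Parp1, which senses DNA breaks, ran from 7.04 to 7.76 in Organic + UVR livers and from 7.92 to 8.09 in ZnO + UVR livers, without overlap, and its difference of -0.52 had a limma adjusted p of 0.227. Of 15 cell division genes, 6 had differences below 0, and Prim1 had the smallest p (-0.81, adjusted p = 0.125). Of 31 plasma protein genes none was called and the median was -0.06. Among actin and adherens junction genes Asap2 was the 1 call of 10, and Vcl, which encodes the junction protein vinculin, ran from 5.74 to 6.17 in Organic + UVR livers and from 6.28 to 6.78 in ZnO + UVR livers, without overlap (-0.57, adjusted p = 0.108).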
